A study of Drosophila melanogaster with 3 samples.

Results

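The Drosophila sterol regulatory element binding protein, SREBP, is a transcription factor held in membranes until proteases cut it and its N-terminal part can enter the nucleus. Its best known fly targets serve the synthesis of fatty acids and phospholipids, and its basic helix-loop-helix domain can bind E-boxes and sterol response elements. Transcription factors are usually studied at gene starts, whereas the 3' untranslated region (3' UTR) follows the coding sequence and ends at the cleavage and polyadenylation site. In the compact fly genome a gene's 3' end often lies close to the start of its neighbour, so that a peak at a gene end can stand beside another gene's promoter.

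The regions described here are the peaks of SREBP chromatin immunoprecipitation and sequencing (ChIP-seq) whose summit fell in a 3' UTR. A peak was a member when its summit lay in an annotated 3' UTR of a protein-coding gene, in no coding sequence or 5' UTR, and more than 500 bp from every protein-coding transcription start. This rule selected 489 of the 30000 peaks in the authors' pooled list (1.63%, 95% Wilson interval 1.49 to 1.78). The 489 peaks lay in the 3' UTRs of 390 genes, which is 2.88% of the 13534 genes with an annotated 3' UTR. The rule used position only, and no signal value, replicate agreement or motif entered it. Position still sets the kind of sequence searched, and the 500 bp limit leaves out peaks at promoters. The chromatin came from whole larvae at the wandering L3 stage, shortly before pupariation, males and females pooled, at an age that the labels do not give. All larvae were of 1 transgenic line carrying SREBP with GFP at its N terminus, and an anti-GFP antibody was used, although the antibody field of the labels names HLH106, another name of SREBP. The 3 samples were biological replicates of this 1 group, so no condition was compared, and control libraries were not used here. Whole larvae mix many tissues, and the labels do not say which promoter drives the fusion.

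Each replicate had a list of 30000 peaks on the dm6 build, and 7993 pooled peaks formed the authors' optimal set, chosen for agreement between replicates. Peaks were ranked within a list by the authors' signal value, with rank 1 the strongest, since no label or note states the scale of that value. The read depth behind each peak is unknown because the lists hold no reads. Intervals on shares cover counting error only. Replicate 2 stood apart from the others in the makeup of its list, with 733 peaks in 3' UTRs under the same rule, against 529 in replicate 1 and 575 in replicate 3, and with 9185 promoter peaks, against 7205 and 7995.

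The sequences under the strongest of these peaks and around the motifs searched are shown so that their composition and the motif matches can be read. They come from the dm6 genome sequence, run 5' to 3' on the strand of the gene whose 3' UTR they lie in, and hold 30 bases each. In the first group, the capital marks the base at the summit of the 3 strongest members, which had pooled ranks 125, 180 and 237.
CG43389 summit, 3L:3248909-3248938, plus strand: cgtcaactttgataActaattgagttcctt
Ance-3 summit, 2L:13955906-13955935, plus strand: gattcatgaagtagAttcagacacctactc
CG7872 summit, X:15579775-15579804, plus strand: ggtcacaaaaaaagCacgccacattcgcgt
In the next group, capitals mark AATAAA, the usual polyadenylation signal, on the gene's own strand within 50 bp of the summit, for 5 of the 20 strongest members. These sequences were chosen after the values were seen. The summits of CG9107, scf and CG5895 lay 37, 46 and 38 bp from an annotated gene end, that of Pbgs 143 bp and that of stas 816 bp, so a match is not by itself the signal of an annotated end.
stas, X:17625055-17625084, minus strand: gtgcgtatgagtAATAAAataacgtatacg
CG9107, 2L:6022952-6022981, minus strand: atttaaaggcatAATAAAttaacataatct
scf, 3L:1300349-1300378, plus strand: tgcaacatgttcAATAAAatgcttttattc
Pbgs, 3L:12270092-12270121, minus strand: aataagcaaaagAATAAAtattcagggacc
CG5895, 3L:16037194-16037223, plus strand: aatagatatgttAATAAAcaaaacacacaa
In the last group, capitals mark the palindromic E-box CACGTG in 2 of the 3 members that held it within 50 bp of the summit.
CG43448, 3R:30237134-30237163, minus strand: agtcatcccacgCACGTGgccaccaaatga
Tmhs, 3L:1891102-1891131, plus strand: aattaagcttagCACGTGcaagaaccaggg

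Peaks in 3' UTRs were sparse for the amount of sequence. The 3' UTR sequence that could hold a member covered 6050264 bp, or 4.52% of the chromosome arms, and held 80.8 summits per Mb. Promoters (within 500 bp of a coding start) held 516 summits per Mb, 5' UTRs farther away 320, introns 248, intergenic sequence 180 and coding sequence 56.0. By density the 3' UTR lay between coding sequence and intergenic sequence. Under the same rule, 3' UTR summits made up 1.76% of the peaks of replicate 1, 2.44% of replicate 2 and 1.92% of replicate 3, a mean of 2.04% ± 0.357 (SD, n = 3). Every replicate's share was below the 4.52% of sequence that 3' UTRs cover. Without replicate 2 the mean share was 1.84%.

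The members were weaker than other peaks, and fewer of them recurred. Of the 489 members, 60 were in the optimal set (12.3%, 9.65 to 15.5), against 26.6% of all pooled peaks. The same share was 41.9% at promoters, 22.6% in introns, 22.3% between genes, 14.8% in 5' UTRs and 1.23% in coding sequence. A summit within 150 bp was found in all 3 replicates for 128 members (26.2%, 22.5 to 30.2), against 41.5% of all pooled peaks. For the rest, 2 replicates held 148 members, 1 held 179 and none held 34. The pooled list is made from the same 3 replicates, so these counts describe agreement within 1 data set. Neighbouring members matched the same replicate summit in at least 1 replicate for 24 of the 489. With summits matched within 50 bp, 13.7% of the members and 24.1% of the other peaks were found in all 3 replicates.

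The replicates' own lists showed the same order. In the 3 lists, the median percentile of signal, where 100 is the strongest peak, was 33.6, 29.9 and 34.8 for 3' UTR peaks, against 50.3, 50.6 and 50.3 for all other peaks. The 3' UTR median was the lower in each replicate, and the groups did not overlap. The difference was -16.8, -20.7 and -15.5 percentile points, a mean of -17.7 ± 2.72 (SD, n = 3; exact two-sided sign-flip permutation test over replicates, p = 0.25, the smallest p that 3 replicates allow). Against intronic peaks alone the mean difference was -13.9 ± 1.39, and against intergenic peaks alone -13.2 ± 2.60 points (SD, n = 3; the permutation test again gave p = 0.25).

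Within ranges of similar rank, the shares of members and other peaks that recurred were nearer to each other than over the whole list. Among pooled ranks 1 to 2000, all 12 members were found in all 3 replicates, as were 99.2% of the other peaks. From there to the end of the optimal set, 44 of 48 members (91.7%, 80.4 to 96.7) recurred in all 3, against 89.7% of the others. In the ranks that follow, up to 15000, the count was 52 of 108 members (48.1%, 39.0 to 57.5), against 56.8% of the others. Beyond rank 15000 it was 20 of 321 (6.23%, 4.07 to 9.43), against 7.49%. The intervals cover counting error only and treat peaks as independent, so they do not show that the shares are equal. The first 2 ranges make up the optimal set, which was chosen for agreement between replicates. Members made up 0.6% of the peaks in the first range and 2.14% in the last.

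**Figure D1:**
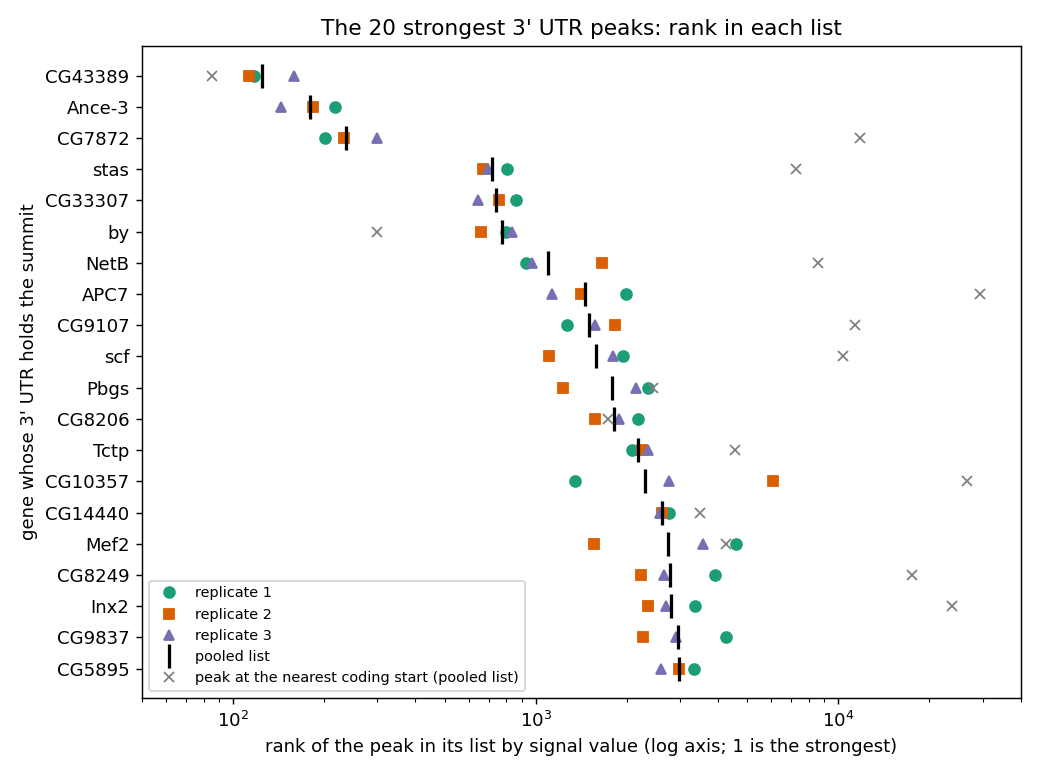
Rank (log axis) of the 20 strongest 3' UTR peaks in the lists of the 3 replicates (coloured points) and in the pooled list (black bars), by the gene whose 3' UTR holds the summit, with the pooled rank of the strongest peak within 500 bp of the nearest coding start (grey crosses). For 13 of the 20 the grey cross lies to the right, so that the peak at the start was the weaker. For 3 it lies to the left, and 4 had no peak there. The 20 were picked by rank, which favours a weaker start peak in advance. Over all members the start peak was the stronger in 266 of 346 cases.

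The strongest member lay in the 3' UTR of CG43389 (FBgn0263246; dm6 3L from 3248630 to 3249262). It ranked 117, 113 and 159 in replicates 1, 2 and 3, and 125 in the pooled list. Its summit lay 121 bp before the annotated end of the gene and 908 bp from the gene's own start, which carried a stronger peak at rank 85. A start of the non-coding gene lncRNA:CR43626 was nearer, at 417 bp. The next member lay at Ance-3 (2L from 13955736 to 13956119), which encodes a protein related to angiotensin-converting enzyme. It ranked 218, 184 and 144 in the replicates, and neither the nearest start, that of NimA at 1619 bp, nor any start of Ance-3 had a pooled peak. CG7872 (X from 15579603 to 15579992) followed with a mean rank of 244 ± 50.1 over the replicates (SD, n = 3), and its own start 1584 bp away held only a peak at rank 11777. For these 3 members the ranks of the replicates lay close together and the setting differed: the start peak was stronger, absent and much weaker.

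Of the 20 strongest members, all 20 were found in every replicate, as were 99.2% of the other peaks in pooled ranks 1 to 2000. The host's own start was the nearest coding start for 15 of the 20, against 42.9% of all members. Within 250 bp of an annotated end of the host lay 15 of the 20, against 45.2% of all members. The blistery gene by, the fly tensin, had a member at rank 773 that lay 4383 bp from its own start, where a stronger peak had rank 300. NetB, which encodes the axon guidance cue Netrin-B, had one at rank 1100 (928, 1656 and 973 in the replicates), inside a 3' UTR of 5224 bp and 9711 bp from any coding start. APC7, a gene of the anaphase-promoting complex, had one at rank 1461 that stood 577 bp upstream of the start of its same-strand neighbour pigs, where the peak had rank 29458. Pbgs, the porphobilinogen synthase gene of haem synthesis, had a member at rank 1793 beside a start peak at rank 2433, and CG8206 one at rank 1817 beside a start peak at rank 1730. Tctp, the translationally controlled tumour protein gene, had a member at rank 2173, 50 bp before the gene's end and 1601 bp from a start whose peak ranked 4558. The member at Mef2, the muscle transcription factor gene, had rank 2731 and replicate ranks of 4575, 1554 and 3563. That of Inx2, an innexin gap junction gene, had rank 2808 and ranks of 3351, 2349 and 2706. Ranks spread more for CG10357 than for the others, at 1353, 6065 and 2748. The remaining named members by strength were at stas (719), CG33307 (737), CG9107 (1501), scf (1587), CG14440 (2621), CG8249 (2787), CG9837 (2945) and CG5895 (2969), with the pooled rank in parentheses.

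The place of a member within its 3' UTR differed with its strength. Within 250 bp of an annotated end of a gene whose 3' UTR held it lay 221 of the 489 members (45.2%), and the same zone made up 46.9% of the 3' UTR sequence searched. The optimal set had 40 of its 60 members there (66.7%), or 14.1 per Mb near the end, against 6.23 per Mb farther in. Near the end 18.1% of the members were in the optimal set (13.6 to 23.7), against 7.46% farther in (4.88 to 11.2). Across finer distances the optimal members numbered 14.9 per Mb within 100 bp, 13.2 from there to 250 bp, 7.02 to 500 bp, 6.39 to 1000 bp and 4.79 beyond.

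Each replicate's own list was then examined in the same way, a comparison added after the pooled values had been seen. Among the 7993 strongest peaks of each replicate, the density of 3' UTR summits was 14.1, 15.5 and 15.9 per Mb near the end in replicates 1 to 3, against 7.78, 6.54 and 7.47 per Mb farther in. The density near the end was the higher in every replicate and the ranges did not overlap. The ratio was 1.81, 2.37 and 2.12, a mean of 2.10 ± 0.281 (SD, n = 3; exact two-sided sign-flip permutation test on the log ratio, p = 0.25, the smallest possible). In the whole lists of 30000 peaks the ratio was 0.871, 1.25 and 1.05, a mean of 1.05 ± 0.188 (SD, n = 3; exact permutation p = 0.75). In the whole lists the ratio lay on both sides of 1.

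**Figure D2:**
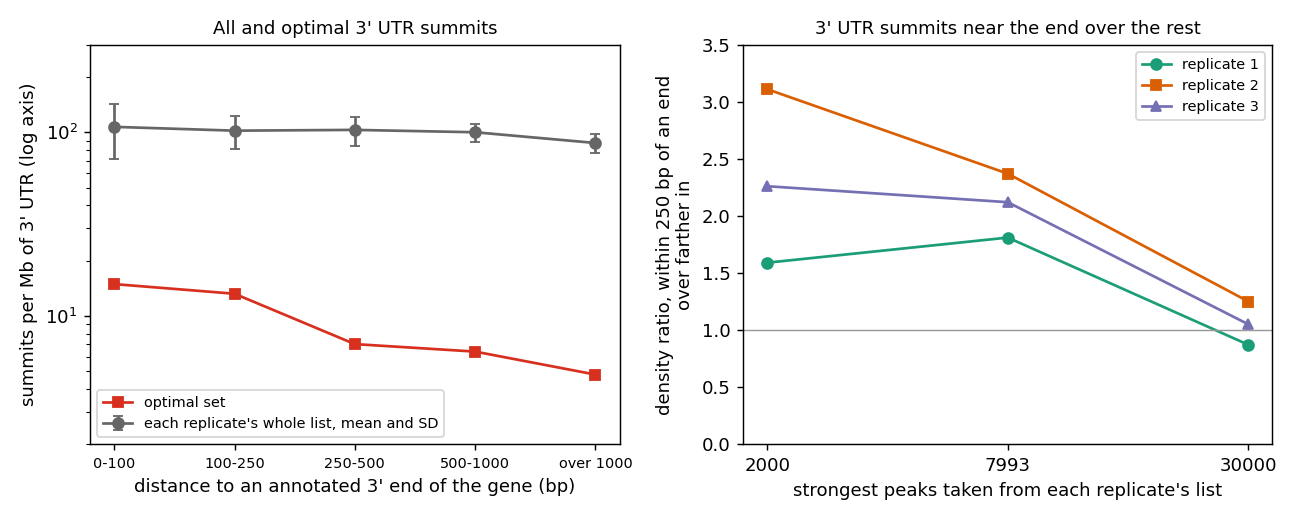
Left, 3' UTR summits per Mb of 3' UTR sequence (log axis) by distance to an annotated 3' end, for each replicate's whole list (grey, mean and SD of 3 replicates) and for the optimal set (red). Right, the density within 250 bp of an end over the density farther in, for the strongest 2000, 7993 and all 30000 peaks of each replicate, where the ratio was between 1.81 and 2.37 at 7993 peaks and between 0.871 and 1.25 at 30000.

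Summits of all kinds were denser beyond gene ends than inside them. Isolated ends were the 3364 most distal gene ends with no coding start within 2000 bp, where a neighbouring promoter could not contribute within the window used. In the 500 bp beyond these ends the replicates had 82.0, 93.3 and 74.3 summits per 1000 ends, against 36.3, 46.4 and 44.0 in the last 500 bp of the gene. Values beyond the end were higher in all 3 replicates and did not overlap with those inside. The difference averaged 41.0 ± 9.29 summits per 1000 ends (SD, n = 3; exact two-sided sign-flip permutation p = 0.25, the smallest possible), and the ratio 1.99 ± 0.287. In steps of 100 bp, the pooled list had 3.86 to 7.13 summits per 1000 ends over the last 500 bp inside, 9.81 in the first step beyond the end and 14.6 to 17.8 in the next 4. The step just beyond the end had 11.6, 11.3 and 10.4 summits per 1000 ends in replicates 1 to 3, against 5.95, 11.6 and 10.4 in the step just inside. In replicates 2 and 3 these 2 steps were thus alike or nearly so, and the higher values began 100 bp beyond the end, where the next step had 14.3, 19.9 and 15.8. Counts inside the gene include introns and coding sequence as well as 3' UTRs.

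Gene ends were next compared by their distance to a neighbouring start. Of the gene ends, 6499 had a coding start of any gene within 1000 bp. Within 250 bp of these ends the replicates had 125, 184 and 147 summits per 1000 ends, against 48.5, 64.5 and 56.5 at isolated ends. Ends near a start held more in every replicate, by a ratio of 2.57, 2.86 and 2.61 and a mean difference of 95.7 ± 22.3 per 1000 ends (SD, n = 3; exact two-sided sign-flip permutation p = 0.25, the smallest possible). The higher counts stood at short distances. The pooled list had 277 summits per 1000 ends where the start lay within 250 bp and 156 where it lay between 250 and 500 bp. It had 58.5 from 500 to 750 bp, 48.2 from 750 to 1000 bp, 55.0 from 1000 to 2000 bp and 46.7 beyond. Of these, summits within 500 bp of a start contributed 277, 143 and 23.2 per 1000 in the first 3 ranges and none in the others, as the window fixes. The members contributed 0, 5.51, 9.76, 9.5, 19.3 and 16.3 per 1000 over the 6 ranges, where the 500 bp limit of the rule removes most at short distances.

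**Figure D3:**
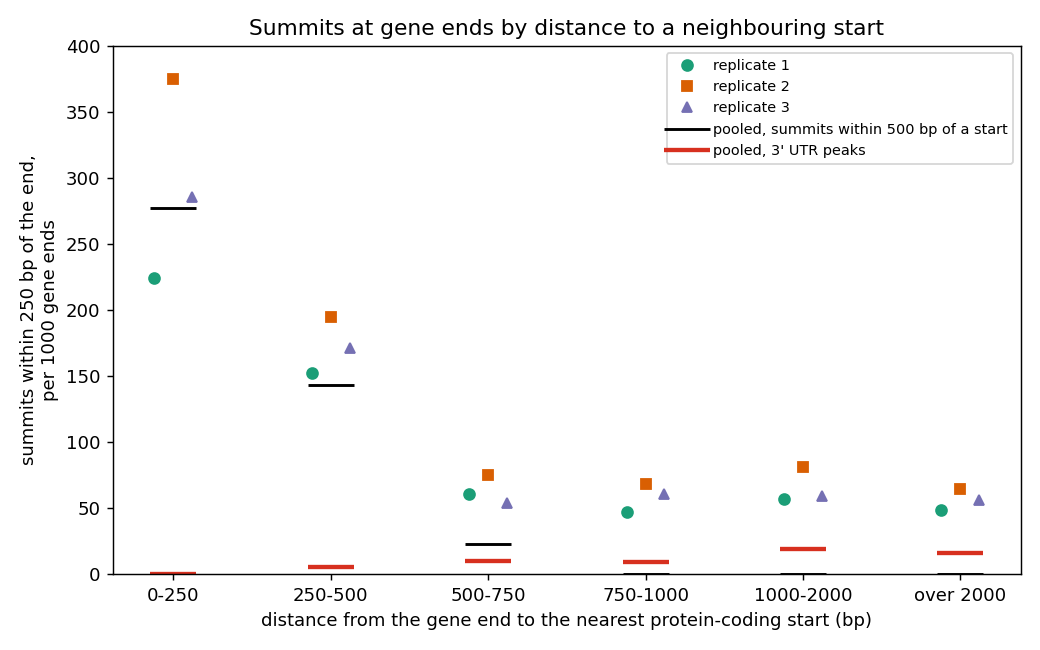
Summits within 250 bp of a gene's most distal annotated end, per 1000 ends, by the distance from that end to the nearest protein-coding start, for the 3 replicates (points), with the pooled summits that lie within 500 bp of a start (black bars) and the pooled 3' UTR peaks (red bars). Values at ends with a start within 250 bp lie between 224 and 375 in the replicates, and at ends over 2000 bp from a start between 48.5 and 64.5.

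Beyond the limit of the rule, the density of 3' UTR summits was lowest in the range farthest from a start. The members lay between 506 and 76583 bp from the nearest coding start, with a median of 1992 bp. A coding start lay within 1000 bp of 82 members (16.8%, 13.7 to 20.3) and within 2000 bp of 246 (50.3%). From the nearest to the farthest of the ranges below, the members numbered 81.2, 104, 114, 106, 76.4 and 57.3 per Mb. The densities that follow are of 3' UTR summits in each replicate's own list. The mean density over replicates was 109 ± 30.3 per Mb from 500 to 750 bp, 135 ± 47.0 to 1000 bp, 132 ± 27.8 to 1500 bp, 115 ± 26.4 to 2000 bp, 104 ± 23.1 to 4000 bp and 72.9 ± 1.25 beyond (SD, n = 3 each). Neighbouring ranges up to 4000 bp overlapped within their spread, and in each replicate the farthest range was the lowest (72.8, 71.8 and 74.3 per Mb). In replicate 1 the nearest range was almost as low, at 74.4 per Mb. For introns the density was 426 ± 40.8 per Mb in the nearest range and 191 ± 9.17 in the farthest, and for intergenic sequence 254 ± 16.9 and 143 ± 12.0 (SD, n = 3 each). Optimal members made up 3 of 36 in the nearest range, 22 of 128 between 2000 and 4000 bp and 9 of 115 beyond.

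**Figure D4:**
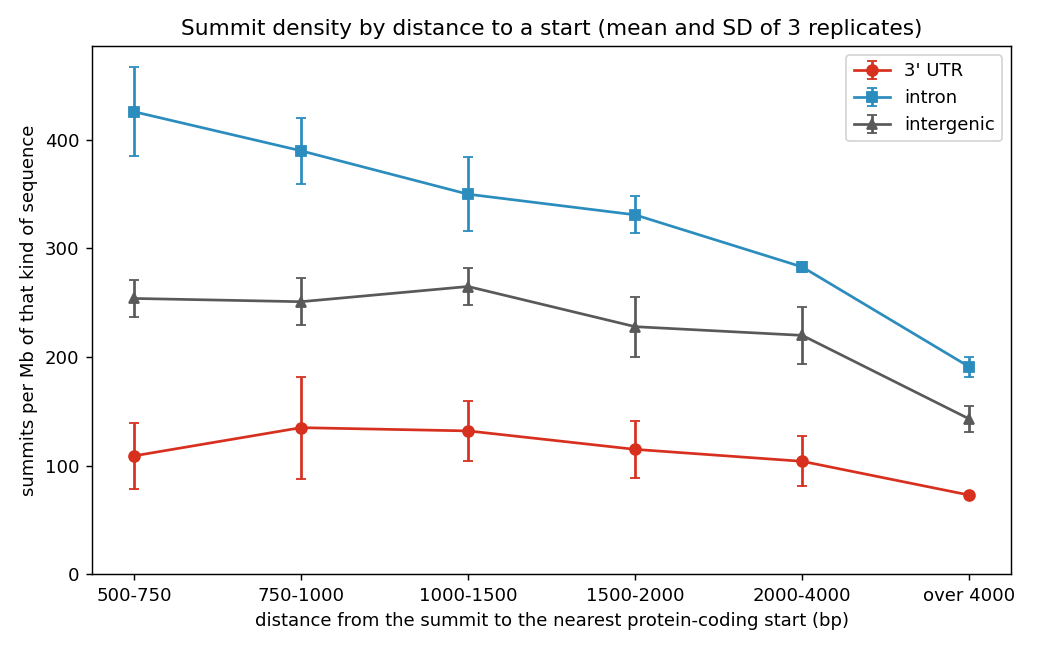
Summits per Mb of 3' UTR (red), intronic (blue) and intergenic (grey) sequence by distance to the nearest protein-coding start, as the mean and SD of 3 replicates. The 3' UTR values lie between 72.9 and 135 per Mb and below both other classes in every range.

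Peaks at the limit had either kind of neighbour. Just inside it were the members at Amun (506 bp from the start of FucT6, rank 8338), CG14324 (513 bp, 24376), ppk30 (518 bp from the start of Obp99a, 15895), PGRP-LA (524 bp from PGRP-LC, 29109), Phae1 (529 bp from Phae2, 24949) and CG43448 (541 bp, 17208). Just outside it, in 3' UTR sequence, were peaks near the starts of fzr (494 bp, rank 3860), veil (491 bp, 2118), CG16756 (487 bp, 29360), Nagk (473 bp, 6690), pes (473 bp, 11354) and fiz (472 bp, 15657). Of these 6 peaks 3 were in the optimal set, and of the 6 members none was. The same share was 12.3% of all members, 41.9% of promoter peaks and 26.6% of all pooled peaks. With 6 peaks on each side, the 2 sides are too few to compare.

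The nearest start belonged to another gene for 279 members (57.1%, 52.6 to 61.4) and to the host for 210 (42.9%). Within the 279 it belonged to a downstream neighbour on the same strand for 149 (30.5%) and to a downstream neighbour on the opposite strand for 118 (24.1%). In 12 cases it belonged to an upstream gene. A start of another gene lay within 1000 bp of 62 members, 5 of which were optimal. An opposite-strand gene ended within 500 bp of 76 members (15.5%), 9 of which were optimal. No member's interval reached over a coding start, which the 500 bp limit and the median width of 396 bp largely fix in advance. A start of a non-coding gene lay within 500 bp of 22 members, of which 18 were annotated ncRNA genes and 4 tRNA genes, and 3 of the 22 were optimal. The 3' UTR sequence was also intronic in another coding transcript for 72 members.

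The start nearest to a member, at whatever distance, had a peak more often than starts in general. It had a pooled peak within 500 bp for 346 of the 489 members (70.8%, 66.6 to 74.6), against 47.8% of the 19252 distinct coding starts. The share was 68.0% for intronic peaks, 50.4% for intergenic peaks, 73.3% for coding-sequence peaks and 79.9% for 5' UTR peaks. Of the 82 members with a start within 1000 bp, 55 had a peak there (67.1%), and of the 243 with none within 2000 bp, 175 (72.0%). In the replicates' own lists it was 57.5%, 79.4% and 68.9% of the 3' UTR peaks, a mean of 68.6% ± 11.0 (SD, n = 3), highest in replicate 2, whose list also held the most promoter peaks. Among the 374 genes that hold the members when each is assigned to 1 host, 304 had a pooled peak at a start of their own (81.3%, 77.0 to 84.9), against 49.0% of all genes with a 3' UTR. Host genes were not matched to the others on 3' UTR length or number of starts, and their part in this share was not tested.

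Where both were present, the start peak was usually the stronger. It outranked the member in 266 of 346 cases (76.9%, 72.2 to 81.0). In the replicates' own lists the share was 78.9%, 82.8% and 76.3%, a mean of 79.3% ± 3.30 (SD, n = 3). For intronic and intergenic peaks it was 68.2% and 60.8% in the pooled list, and for coding-sequence and 5' UTR peaks 91.2% and 79.1%. The median pooled rank was 19259 for the members, 16153 for intronic, 16401 for intergenic, 24178 for coding-sequence and 17182 for 5' UTR peaks. The classes were not matched on rank. With a start within 1000 bp the start peak was stronger in 40 of 55 cases, and with the start beyond 2000 bp in 139 of 175. For optimal members, which are members of high rank, the nearest start had a peak in 47 of 60 cases, and it was the stronger in 22 of those 47 (46.8%, 33.3 to 60.8). The choice by rank lowers this share in advance, so it is given as a description only. For optimal peaks in introns and between genes it was 23.4% and 20.8%, without matching on rank. In 5' UTRs it was 48.1% (13 of 27) and in coding sequence 22.2% (2 of 9). The members with the strongest start beside them were the 3 in the 3' UTR of CG1888, whose own start carried the peak at rank 7 while the members had ranks 12942, 18916 and 21290. CG1888 falls outside the rule for named genes and was picked for these values.

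**Figure D5:**
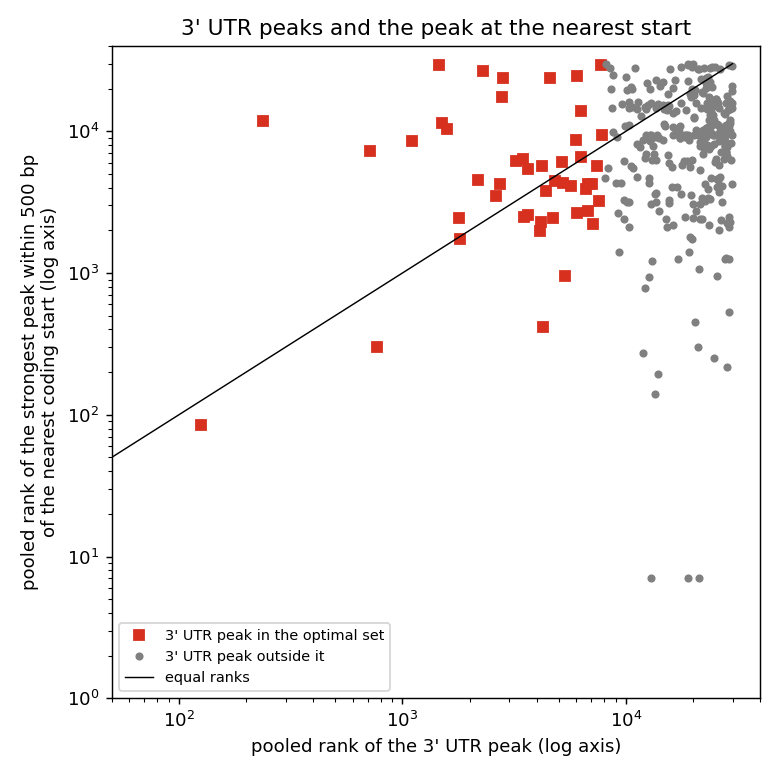
Pooled rank of the strongest peak within 500 bp of the nearest coding start against the pooled rank of the 3' UTR peak (both log axes), for the 346 members with such a peak. Points under the line of equal ranks have the stronger peak at the start, which holds for 266 of 346 members and for 22 of the 47 optimal members among them (red squares).

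A stronger pooled summit of any kind lay within 1000 bp of 163 members (33.3%, 29.3 to 37.6), against 35.3% of the other peaks. It was a promoter peak for 27 of those 163 (16.6%), against 29.5% for the other peaks. The other peaks include the 7915 promoter peaks, whereas the rule keeps every member more than 500 bp from coding starts. The rule itself thus sets these groups apart in distance to promoters, and both shares are given as a description only. Other peaks beyond the 500 bp limit were not compared separately. Among the optimal members, 8 of 60 had a stronger summit of any kind within 1000 bp, against 14.5% of the other optimal peaks.

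Genes with long 3' UTRs held most members. The longest annotated 3' UTR had a median of 1148 bp in hosts, against 227 bp in all genes with one. Of the 2024 genes with a 3' UTR over 1000 bp, 211 held a member (10.4%), against 179 of 11510 others (1.56%). Per Mb of the sequence searched in all genes of a given length, the count of members differed little above 250 bp. Genes with 3' UTRs of 250 to 500 bp had 90.0 members per Mb, those of 1000 to 2000 bp 88.1 and those over 4000 bp 80.3. The shortest, up to 250 bp, had 45.5. Optimal members numbered 13.7 per Mb in 3' UTRs of 1000 to 2000 bp and 4.4 per Mb in those over 4000 bp.

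A few long 3' UTRs carried several members. With each member assigned to 1 host, 298 hosts had 1 member, 56 had 2 and 20 had 3 or more. The gene br, which encodes the Broad zinc finger transcription factors of the ecdysone response, had 13 members, at ranks from 12248 to 29957. None of them was optimal, 4 were found in all 3 replicates, 4 in 2, 4 in 1 and 1 in none. The chromatin factor gene corto had 6 members with 1 in the optimal set at rank 7849, and Glut4EF had 5. The lipid droplet gene Lsd-2, a perilipin, had 4 members, of which the strongest had rank 5206 and ranks of 6206, 4142 and 7082 in the replicates. Its other members had ranks 9038, 9530 and 12692, and its own start had a peak at rank 4126. Cam (calmodulin), dia (diaphanous, a formin) and hth (homothorax) had 4 each, none of them optimal.

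Gene lists were read against the 2.88% of all genes with a 3' UTR that held a member. In the ecdysone response, through which steroid pulses drive metamorphosis, 7 of 14 genes held 22 members, 13 of them in br. The others were Hr4, Hr3, EcR, Eip75B, Eip74EF and Eip78C. Hr4, a nuclear receptor gene, had the only optimal member of the list, at rank 4715 and at 4543, 5609 and 4677 in the replicates. The list's genes had a median longest 3' UTR of 2893 bp, and all 7 hosts were among its 11 genes with over 1000 bp. The part of 3' UTR length in these counts was not tested.

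Of the 20 genes of lipid synthesis, 15 had a pooled peak at a start, against 49.0% of all genes with a 3' UTR. Their median longest 3' UTR was 550 bp, and 3 of them had over 1000 bp. The list held 1 member, in 1 of its 20 genes (5%). That member was at eas, which encodes ethanolamine kinase of phosphatidylethanolamine synthesis, at rank 5158 and at 7240, 4297 and 5495 in the replicates. It lay 192 bp before the gene's end and 862 bp from the start of UQCR-14, whose peak had rank 6034, while the start of eas itself had a peak at rank 669. Lipid storage had 1 host, Lsd-2, among 8 genes. Insulin and TOR signalling had 4 of 18, namely Lk6, Thor, Pdk1 and sgg, with 6 members and none optimal. Thor, the 4E-BP translation inhibitor gene, had a member at rank 12799 that was found in 2 replicates. Autophagy had 1 of 17 (Atg13), the unfolded protein response 1 of 8 (Hsc70-3), and glycolysis and the circadian clock none of 13 and none of 8. Of 93 cytosolic ribosomal protein genes, 3 held a member, and those of RpS26 (rank 7073) and RpS23 (rank 7103) were optimal while that of RpL22 (rank 29000) was not. Markers of tissues in the larva were hosts in 1 of 12 cases for muscle (TpnC73F), 2 of 10 for neurons (para and fne) and 1 of 8 for the fat body (Fbp1), which are peak positions and not measures of expression.

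The motifs known for SREBP were rare in these peaks. Within 50 bp of the summit, on either strand, the E-box CACGTG was present in 3 of 489 members (0.613%, 0.209 to 1.79), at CG43448, Tmhs and Egfr, against 1.06% of the other peaks. None of the 60 optimal members held it, which allows a share of up to 6.02%, and 0.580% of the other optimal peaks did. The sterol response element TCACNCCAC was present in 2 members (0.409%), against 0.197% of the other peaks. The E-box variant CACATG was present in 25 (5.11%, 3.49 to 7.44), against 4.56%. In windows of the same width centred 300 bp to either side of the members, these 3 were present in 0.716%, 0.204% and 3.99%. Letters of promoter elements were rare as well, with TATCGATA (DRE) and GGTCACACT (M1BP) in 1 member each (0.204%), against 2.74% and 1.29% of promoter peaks. They were also rare in other peaks away from starts, at 0.161% and 0.153% of intronic peaks and 0.194% and 0.0553% of intergenic peaks. GAGAGAG was present in 11 members (2.25%), against 1.69% of the other peaks. Each window was counted once per motif, and a CACGTG cannot share letters with a CACATG on either strand.

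The base composition differed with the strength of the peak. AATAAA occurred within 50 bp of the summit, on either strand, in 22.3% of members (18.8 to 26.2), against 24.0% of the other peaks and 23% of the windows 300 bp to the sides of the members. On the host's strand it was present in 13.7% and on the other strand in 10.2%. Optimal members had it in 31.7% (21.3 to 44.2), against 32.4% of the other optimal peaks. The median G+C content of the same windows was 30.7% in optimal members and 38.6% in members outside the optimal set. The other optimal peaks also had a median of 30.7%, and the sequence 300 bp to the sides had 41.1% in optimal members and 45.5% in the other optimal peaks. All 3' UTR sequence searched had 35.2%.

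Members were spread over the large arms. In the pooled list X held 138 of them (28.2%), against 19.4% of all pooled peaks, 3R held 110, 3L 90, 2R 80 and 2L 71, and chromosome 4 none. Per Mb of 3' UTR sequence, X had 90.6, 147 and 104 summits in replicates 1 to 3, 2R had 94.1, 134 and 97.0, and 3L had 99.3, 108 and 104. The remaining large arms had 85.4, 111 and 89.5 (2L) and 78.0, 108 and 87.7 (3R). In these whole lists the arms overlapped, and X was below 2R and 3L in replicate 1. Chromosome 4 had 3' UTR summits in the replicates' own lists at 0, 61.1 and 10.2 per Mb. Of the 60 optimal members, 23 lay on X, which has 1412294 of the 6050264 bp of 3' UTR sequence searched. The arm 3R, with 1436766 bp, held 6 of them, 2R held 13, and 2L and 3L held 9 each. This spread of optimal members over the arms was not tested.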

How the data were processed

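Peak lists from ChIP-seq of SREBP in 3 biological replicates, 1 group, were analysed. Per the deposited notes, reads were aligned to dm6 by the authors and the lists are narrowPeak files. A replicate's list was made from that replicate's alignments, the pooled list from those of all 3, and each also used 1 common file. For the optimal set the authors applied the irreproducible discovery rate to the replicate and pooled lists, per the deposited notes; it equals the 7993 strongest pooled peaks. Aligner, caller and threshold: not given in the sources used here. Each deposited signal value, a score of unstated scale, was used only for ranks. Start, end and summit offset were read as positions, and coordinates are counted from 1.

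Gene models were those of Ensembl release 115 (BDGP6, which has the arms of dm6). A summit within 500 bp of a coding start was a promoter summit. The others were assigned, in this order, to coding sequence, 5' UTR, 3' UTR, intron or intergenic sequence. Summits of 2 lists were matched within 150 bp. Shares have 95% Wilson intervals (scipy 1.17.1). Replicate contrasts used exact sign-flip permutation tests, whose smallest p with 3 replicates is 0.25. The classification and tests were checked on simulated positions.

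The members, lists, motifs and tests were chosen with earlier results of these data known. The named members were the 20 strongest, up to 4 for each of 12 gene lists, up to 10 with CACGTG and 6 on each side of the 500 bp limit; some are given by count only, and genes with several members, CG1888 and the genes of the closing section are named beyond that rule. Alternatives changed the limit, the summit, the matching, the lists and the windows, and the comparison of strong peaks near gene ends and the AATAAA sequences were chosen later, after seeing the data. Of the ecdysone genes listed, 1 was not matched in the annotation.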

Additional observations from a re-analysis of the deposited data

How the results depend on the processing

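There were 49 alternatives over 10 results, 44 of them planned. A reversed direction could be scored only for the sign-flip contrasts, and no alternative reversed the mean over replicates there. For values with no test, and for the count of members, 16 alternatives moved the value beyond its error or by over 1.5 times. For the sign-flip contrasts the direction of the mean stayed while its size changed. The near-end ratio was 1.05 ± 0.188 with all 30000 peaks of each replicate (0.871 in replicate 1) and 2.32 ± 0.766 with the 2000 strongest. The difference between ends near a start and isolated ends was 35.5 within 100 bp of the end, 168 within 500 bp and 179 with starts within 500 bp. The percentile difference was -11.5 against other peaks over 500 bp from coding starts, -13.2 against intergenic and -13.9 against intronic peaks. The number of 3' UTR peaks was 243 at more than 2000 bp from coding starts, 168 among the 15000 strongest pooled peaks and 60 in the optimal set, which hold fewer peaks by construction. The share found in all 3 replicates was 13.7% with summits within 50 bp, 37.2% within 300 bp (against 24.1% and 53.2% of the other peaks) and 14.5% with the 15000 strongest of each replicate. Leaving out each replicate gave 32.1 to 38.7%. The 3' UTR share of the replicates' peaks was 1.20% among the 15000 and 0.822% among the 7500 strongest, and 1.84 to 2.18% without each replicate. A start lay within 1000 bp of 11.7% of optimal members, and of 22.1% of members when non-coding starts counted. The start peak was the stronger in 82.8% of cases in replicate 2. CACGTG was in 0% of members within 25 bp of the summit and in 0% of optimal members. The cause of these shifts was not tested. Without each replicate, the percentile difference ran from -18.8 to -16.1 points and the near-end ratio of strong peaks from 1.97 to 2.25. These contrasts are paired within each replicate, and with 1 group of samples no replicate block between groups could be fitted.

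The lists hold no reads, so depth could not be weighed, and each list ended at 30000 peaks. Gene ends and starts are those of the annotation, and non-coding starts were not part of the rule. Larvae of 1 line were used with no untagged comparison here, so signal of the antibody or of open chromatin and signal of SREBP cannot be told apart. Neighbouring members share larvae, libraries and sometimes a matched summit, and they are not independent.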

Other observations

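Some optimal members outside the rule for named genes were picked after their values were seen. The 3' UTRs of Myc, which encodes a growth regulator that itself binds E-boxes, and of the overlapping gene CG12535 held a member at rank 3459 (3406, 3457 and 3838 in replicates 1 to 3). It lay 16864 bp from the nearest coding start, and no start of Myc had a pooled peak, while a start of CG12535 had one at rank 3895. Ssu72, a gene for a phosphatase of RNA polymerase II, held one at rank 4163 (3064, 4732 and 5066), 8 bp before an annotated end and 1212 bp from the start of Zw, the glucose-6-phosphate dehydrogenase gene, whose start peak had rank 2283. The member in cg, at rank 4255, lay 2 bp before the annotated end and 2368 bp from the start of Sdb, which carried a peak at rank 419.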
